A study of Xenopus laevis with 46 samples.

Results

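Lithium chloride and siamois mRNA both enlarge the dorsal, organizer-forming side of the frog embryo, and the difference between their effects on the transcriptome was measured at stage 10.5, the early gastrula. The comparison rested on 7 of the 46 RNA-seq libraries of the series, chosen by treatment and by the batch named in the labels. They were 2 libraries of whole Xenopus laevis embryos treated with LiCl at the 32-cell stage, 2 of embryos injected in the marginal zone with 100 pg of siamois mRNA (Sia) between the 2-cell and 4-cell stage, and 3 of untreated whole embryos (controls 1 to 3). All embryos were of the Nasco strain, with no further genetic alteration given. LiCl 1 shared a batch with control 1, Sia 1 with control 2, and LiCl 2 and Sia 2 both with control 3. Each library was made from polyA-selected RNA of whole embryos, so fewer cells of a type and less RNA per cell cannot be told apart, and the sources used here do not give the number of embryos pooled.

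Maternal β-catenin, which accumulates in dorsal nuclei after fertilization, switches on the homeobox genes siamois and twin and the ligand gene nodal3, and Siamois and Twin proteins in turn activate organizer genes such as goosecoid. Lithium inhibits the kinase GSK3 and so stabilises β-catenin throughout the embryo, upstream of siamois. After the midblastula transition, zygotic Wnt8 uses β-catenin again, on the ventral and lateral side, to switch on posterior genes such as those of the hox and cdx families. Injected siamois mRNA supplies the transcription factor itself. The comparison therefore sets an agent that acts on β-catenin beside one of its target genes. The labels give an injection for the Sia embryos and none for the LiCl and control embryos, and the treatments began at different cell stages. Effects of injection or of timing therefore cannot be told apart here from those of the agent.

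Values are the authors' RPKM, reads scaled for gene length and sequencing depth. Differences are log2(RPKM + 0.5) in LiCl minus that in Sia, ± the standard error from limma, so a positive value means higher in LiCl. The fit held group and batch as terms over 19 whole-embryo libraries. Beyond the 7 compared, it took in 3 libraries of β-catenin morphants (morpholino, an antisense reagent), 3 with Wnt8 and 3 with Cerberus. It also held the remaining untreated controls, for 6 controls in all. The morphants shared the batches of controls 1, 2 and 3, so they too help set those batch terms. The p-values of the fit are two-sided and adjusted by Benjamini-Hochberg over all genes tested. Calling a gene required an adjusted p under 0.05. For single genes, the first pair difference is the change from control 1 to LiCl 1 minus that from control 2 to Sia 1, and the second is LiCl 2 minus Sia 2 within their shared batch. A name followed by "match" is that of the closest human gene given for the row in the deposited table. Whether replicates are separate clutches is not stated in the labels; p-values then reflect the spread among these libraries alone, possibly a technical one. Rows of near-identical copies (the siamois, nodal3 and nodal5 families, chordin rows, .L and .S homeologs) can share reads, and a value is less certain for 1 copy than for its family.

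The 7 libraries held 28.7 M to 45 M reads in genes (M for megareads). The siamois row Xelaev18019203m checked the injection: it held 11.2, 22.3 and 16.1 RPKM in the controls, 157 and 133 in LiCl, and 660 and 638 in Sia. That row holds injected and embryonic RNA together, so it was set aside. A globin row, hbg1.L, was set aside too. It was at 0 in the 3 controls, 0.0439 and 0.0732 in LiCl, and 53.1 and 48.3 in Sia, for a reason not tested. Markers of each region of the whole embryo were detected. Summed organizer markers (goosecoid, chordin and noggin rows, 1 of 8 at 0 in every library) ran from 238 to 279 RPKM in controls, 965 in both LiCl libraries and 855 to 1104 in Sia. Summed mesoderm markers ran from 113 to 205 RPKM in controls, 77.2 to 117 in LiCl and 60.8 to 68.6 in Sia, and ectoderm markers from 134 to 434, 81.0 to 260.3 and 155 to 268.

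The effects of the 2 treatments differed for 1099 of 18832 genes tested (5.84%): 277 (1.47%) were higher in LiCl and 822 (4.36%) higher in Sia. Differences of at least 2-fold were held by 100 of the former and 194 of the latter. Counts for the gene lists below stand beside these shares of 1.47% and 4.36% over all genes. Genes higher in LiCl included early β-catenin targets, posterior Wnt targets and some mesoderm genes. Genes higher in Sia included anterior neural plate genes, 127 transcripts under 1 RPKM in every control and LiCl library, and some genes of DNA replication and mitosis. Against the controls, LiCl raised 714 genes (3.79%) and lowered 1953 (10.4%), and Sia raised 438 (2.33%) and lowered 344 (1.83%); these comparisons share control 3. With median-of-ratios size factors 1031 were called (5.47%), 381 higher in LiCl (2.02%) and 650 higher in Sia (3.45%), so the share higher in LiCl was 37.0% of calls there and 25.2% in the fit above. The count rested on all 4 treated libraries: it was 522 without LiCl 1, 497 without LiCl 2, 403 without Sia 1 and 339 without Sia 2.

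**Figure D1:**
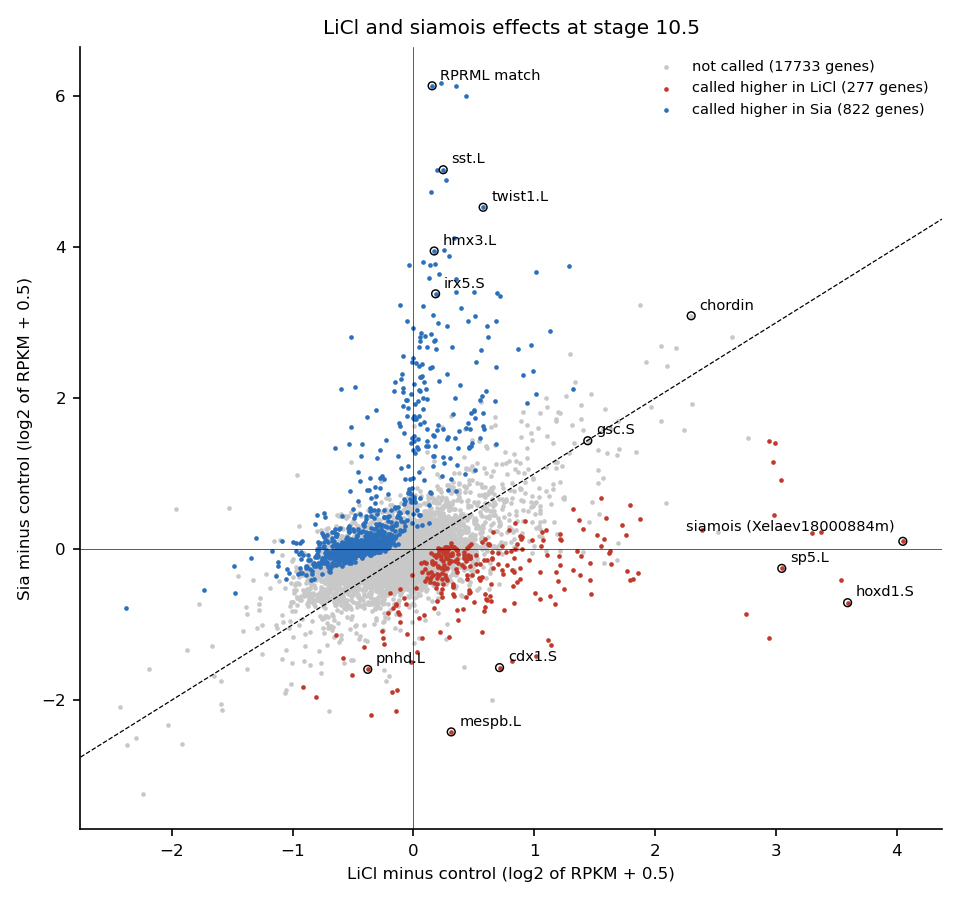
Change from control in LiCl (horizontal axis) and in Sia (vertical axis) for 18832 genes, both on the log2(RPKM + 0.5) scale from the fit over 19 libraries; the 2 axes share control libraries, the dashed line marks equal effects, and colours mark genes called in the difference. The 277 genes higher in LiCl lie below the line, the 822 higher in Sia above it, and chordin and gsc.S lie near it, far from 0 on both axes.

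Early β-catenin targets were the list with the highest share of calls in the plot of gene lists. Of 20 rows of this list in the table, 15 passed the filter on low values, 14 were called higher in LiCl by limma and 0 higher in Sia (0 at an unadjusted p below 0.05 and 0 with voom), and the median difference was 1.59 against -0.03 over all genes tested. The 14 rows belong to siamois, twin, nodal3, nodal5 and nodal6 alone, and near-identical copies can share reads, so they are not 14 independent targets. The median change from control over the list was 1.73 in LiCl and 0.13 in Sia. Against control, LiCl raised 14 of the 15 rows and Sia raised 3, beside 3.79% and 2.33% of all genes tested. The siamois copy Xelaev18000884m held 0.254, 0.207 and 0.561 RPKM in controls, 21.6 and 8.60 in LiCl, and 0.392 and 0.250 in Sia. Both LiCl libraries thus stood far above the other 5, and the Sia libraries overlapped the controls (difference 3.95 ± 0.32, adjusted p = 1.6e-05; pair differences 4.54 and 3.60). Another copy, Xelaev18000882m, held 0.277, 1.04 and 1.38 RPKM in controls, 15.1 and 14 in LiCl, and 0.403 and 0.776 in Sia (3.95 ± 0.33, adjusted p = 1.8e-05). Xelaev18019204m differed by 3.14 ± 0.29 (adjusted p = 4.8e-05), and twin (Xelaev18019205m), a homeobox gene that acts with siamois, by 2.13 ± 0.35 (adjusted p = 0.0044).

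Among the ligands of this list, 3 rows of nodal3, which in the frog drives gastrulation movements, differed by 1.51 to 1.83. The rows of nodal5 and nodal6, blastula ligands that induce mesendoderm, differed by 0.69 to 1.72. The nodal5 row Xelaev18018806m held 1.3, 1.45 and 2.01 RPKM in controls, 3.78 and 5.25 in LiCl, and 1.46 and 2.49 in Sia (1.09 ± 0.14, adjusted p = 0.00076). LiCl was above every control and Sia library there, by a smaller margin than for siamois. The list's count of 14 was 8 without LiCl 1, 4 without LiCl 2, 7 without Sia 1 and 8 without Sia 2, 4 within the shared batch alone and 6 without the replicate block, the batch term. The twin call was lost without LiCl 2 (adjusted p = 0.0881) or Sia 2 (adjusted p = 0.0668), and at least 2 of the nodal3 calls without LiCl 2, Sia 1 or Sia 2.

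Zygotic Wnt targets, the genes that answer β-catenin after the onset of zygotic transcription, were higher in LiCl in 14 of 34 tested rows (52 in the table) and higher in Sia in 0 by limma (0 at an unadjusted p below 0.05 and 0 with voom), with a median difference of 0.71. Their median change from control was 0.58 in LiCl and -0.23 in Sia. The gene with the largest difference was hoxd1.S, a hox gene that answers Wnt and retinoic acid in the frog gastrula. It held 1.40, 2.22 and 2.03 RPKM in controls, 29.9 and 27.9 in LiCl, and 0.666 and 1.3 in Sia. LiCl was above all others and both Sia libraries were below every control (difference 4.30 ± 0.32, adjusted p = 6.5e-06; pair differences 5.22 and 3.98). The Sia change from control did not pass the test in hoxd1.S (-0.71 ± 0.28, adjusted p = 0.22) and passed it in hoxd1.L (-1.18 ± 0.20, adjusted p = 0.0038), whose LiCl minus Sia difference was 4.12 ± 0.23 (adjusted p = 6e-07).

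The zinc finger gene sp5.L, a direct Wnt target and feedback regulator, held 0.58, 1.43 and 1.1 RPKM in controls, 13.6 and 9.30 in LiCl, and 0.794 and 0.777 in Sia (3.3 ± 0.28, adjusted p = 2.5e-05). Sia overlapped the controls and LiCl alone stood apart. Axin2.L, an inhibitor of the pathway that Wnt itself induces, differed by 1.33 ± 0.25 (adjusted p = 0.0088), and the GBX2 match Xelaev18044833m, a posterior neural homeobox gene, by 1.83 ± 0.26 (adjusted p = 0.0015). The Wnt receptor gene fzd10.L held 4.03, 6.74 and 5.14 RPKM in controls, 12.9 and 11.0 in LiCl, and 2.99 and 3.1 in Sia (1.91 ± 0.17, adjusted p = 3.7e-05). There the treatments moved apart from the controls in opposite directions: 1.17 ± 0.15 in LiCl (adjusted p = 0.0008) and -0.73 ± 0.15 in Sia (adjusted p = 0.014). This list's count was 11 without any 1 of the 4 treated libraries, 9 within the shared batch alone, 8 with the filter of 5 RPKM and 4 without the replicate block, and the axin2.L call was lost without LiCl 1, LiCl 2 or Sia 2 (adjusted p = 0.0504 to 0.113).

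Among the caudal-type homeobox genes, which pattern the posterior body, the treatments also moved cdx1.S in opposite directions. Cdx1.S held 6.59, 11.8 and 5.38 RPKM in controls, 14.3 and 8.47 in LiCl, and 2.38 and 1.91 in Sia. Sia lay below all controls, while LiCl 2 was within their range (difference 2.28 ± 0.24, adjusted p = 0.00012; LiCl 0.71 ± 0.20 from control, adjusted p = 0.038; Sia -1.57 ± 0.20, adjusted p = 0.00056). In cdx4.S, LiCl 1 held 9.00 RPKM and LiCl 2 held 2.94, and the pair differences were 3.95 and 1.70 (2.32 ± 0.38, adjusted p = 0.0044). Cdx2.S differed by 2.2 ± 0.35 (adjusted p = 0.0029). Other rows among the largest differences toward LiCl were a DCST1 match (3.61 ± 0.34), a DUXA match (2.53 ± 0.21) and a SHOX match (2.2 ± 0.27). LiCl was above all controls and Sia libraries in each of these matches. Sia overlapped the controls in the DUXA and SHOX matches and lay below them in the DCST1 match, where its change from control did not pass the test (-0.86 ± 0.30, adjusted p = 0.15).

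Ventrolateral and pan-mesoderm genes were higher in LiCl in 16 of 56 tested rows (28.6%; 80 in the table) and higher in Sia in 3 (5.36%), with a median difference of 0.52. Their median change from control was 0.20 in LiCl and -0.44 in Sia. The somite-forming gene mespb.L held 9.87, 11.4 and 13.6 RPKM in controls, 8.68 and 21.6 in LiCl, and 2.33 and 1.83 in Sia. The LiCl libraries lay on either side of the controls and Sia fell below both groups (difference 2.73 ± 0.50, adjusted p = 0.0075; LiCl 0.31 ± 0.43 from control, adjusted p = 0.68; Sia -2.42 ± 0.43, adjusted p = 0.0057). Myf5.S, a muscle-determining factor, was at 0.559, 1.33 and 1.73 RPKM in controls, 1.53 and 5.40 in LiCl, and 0.301 and 0.316 in Sia (2.40 ± 0.25, adjusted p = 0.00014). Brachyury, the pan-mesodermal T-box factor (t.L), differed by 1.84 ± 0.33 (adjusted p = 0.0067), and the Notch-related HES5 match Xelaev18035791m by 2.43 ± 0.31 (adjusted p = 0.00059). The members higher in Sia were the ZEB2 match, evx1.L (-1.25 ± 0.21, adjusted p = 0.0046) and foxf1.L (-1.04 ± 0.20, adjusted p = 0.011), which has a role in lateral and visceral mesoderm. The count of 16 was 11 without LiCl 1, 8 without LiCl 2, 10 without Sia 1 and 8 without Sia 2. It was 7 within the shared batch alone and 2 without the replicate block. The call of mespb.L was lost without LiCl 2 (adjusted p = 0.12) or Sia 2 (adjusted p = 0.119), that of t.L without LiCl 2 or Sia 1, that of evx1.L without LiCl 2 and that of foxf1.L without LiCl 1 or LiCl 2.

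Nodal ligands and mesendoderm genes had 3 of 30 tested rows (39 in the table) higher in LiCl, with a median difference of 0.54. The count depended on the fit: it was 15 with the 7 libraries of the comparison alone, 12 with all 10 whole-embryo libraries of those 3 batches, 8 with voom on recovered reads, 5 with median-of-ratios size factors and 1 without the replicate block, within the shared batch alone or without LiCl 2. Nodal1.S, a ligand that maintains mesoderm, held 0.587, 0.563 and 1.1 RPKM in controls, 2.44 and 5.68 in LiCl, and 0.532 and 0.673 in Sia (2.06 ± 0.27, adjusted p = 0.00073). LiCl was above the other 5 libraries. Of 31 tested endoderm rows 4 were higher in LiCl (12.9%) and 1 in Sia (3.23%), and the Sia change from control of those 4 ran from -0.45 to -1.96. Pinhead (pnhd.L), a secreted protein of the marginal zone, held 36.1, 44.4 and 36.0 RPKM in controls, 30.8 and 27.6 in LiCl, and 12.5 and 12.7 in Sia (1.21 ± 0.15, adjusted p = 0.00057; Sia -1.59 ± 0.13 from control, adjusted p = 1.2e-05).

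**Figure D2:**
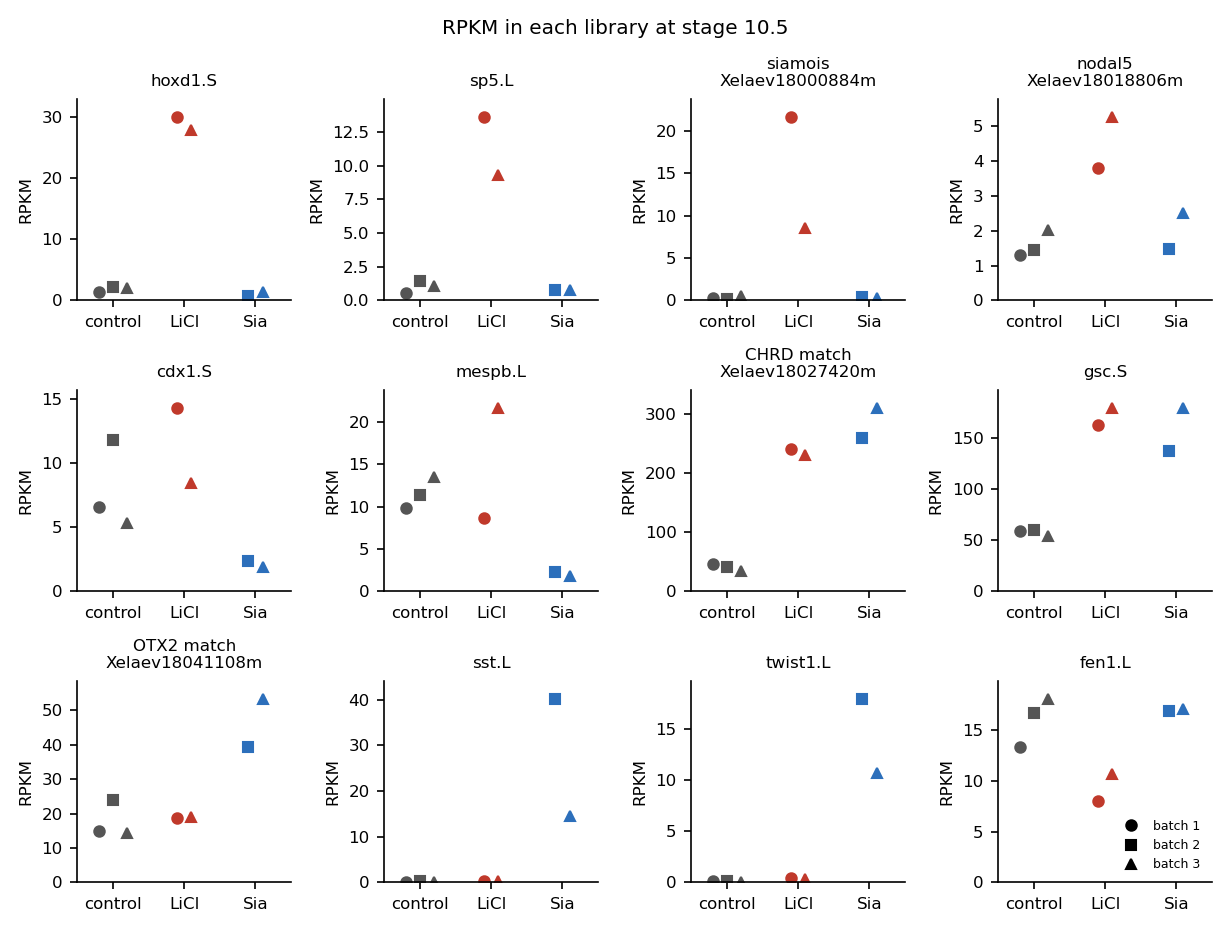
RPKM (vertical axes, each starting at 0) in each of the 7 libraries for 12 of the genes described; marker shape gives the batch and colour the group. LiCl stands apart in hoxd1.S, sp5.L and siamois, Sia in cdx1.S, the OTX2 match, sst.L and twist1.L, both treatments above control in the chordin row and gsc.S, and LiCl below the rest in fen1.L.

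Organizer genes were called about as often as all genes tested, of which 1.47% were higher in LiCl and 4.36% higher in Sia. Of 33 tested rows for organizer transcription factors, 1 was higher in LiCl (3.03%) and 2 in Sia (6.06%), with a median difference of 0.01. Of 26 rows for secreted organizer proteins (43 in the table), 1 was called, higher in Sia (3.85%), with a median of -0.06. With so few rows, these shares do not set the lists apart from all genes. Against control, LiCl raised 14 and Sia 14 of the transcription factor rows, and LiCl raised 14 and Sia 16 of the secreted protein rows. Over all genes tested, LiCl raised 3.79% and Sia 2.33%. Median changes from control were 0.57 in LiCl and 0.51 in Sia for the former, and 0.94 and 1.17 for the latter.

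Goosecoid, the homeobox repressor that marks the organizer, held 59.4, 60.4 and 53.9 RPKM in controls (gsc.S), 163 and 179 in LiCl, and 138 and 179 in Sia. Both treatments stood above every control and overlapped each other; the difference was 0.01 ± 0.24, with a 95% interval from -0.51 to 0.52. Chordin, the secreted BMP antagonist of the organizer (CHRD match Xelaev18027420m), held 46.5, 41.5 and 34.7 RPKM in controls, 240.3 and 231 in LiCl, and 259 and 309.7 in Sia. Sia was the higher in this row, within the error of the fit (-0.79 ± 0.52, adjusted p = 0.45, interval -1.93 to 0.35). Its pair differences were -0.27 and -0.42, both smaller in size than the fitted value, which also draws on libraries outside the comparison. The other chordin row, Xelaev18027421m, gave an interval from -1.78 to 0.49, gsc.L one from -0.92 to 0.94, and the forkhead genes foxa4.L and foxa4.S, of axial mesoderm and floor plate, intervals from -0.41 to 0.53 and from -0.65 to 0.78. Pair differences were 0.08 and -0.36 in the other chordin row (fitted -0.65) and 0.64 and 0.15 in gsc.L (fitted 0.01). In gsc.S and the foxa4 rows the fitted value lay between the pair differences. A missed threshold does not show that the treatments act alike on these genes, and the chordin interval reaches past a 2-fold excess in Sia.

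The called organizer genes were not.L, a notochord homeobox gene, higher in LiCl by 0.78 ± 0.12 (adjusted p = 0.0033), and 3 rows higher in Sia. Head-forming otx2 (OTX2 match Xelaev18041108m) held 14.8, 24.1 and 14.4 RPKM in controls, 18.6 and 19 in LiCl, and 39.3 and 53.2 in Sia. LiCl was within the range of the controls and Sia above it (-1.26 ± 0.30, adjusted p = 0.028; pair differences -0.38 and -1.47). Crescent (Xelaev18025927m), a secreted Wnt antagonist of the head organizer, was at 0.280 to 0.639 RPKM in controls, 0.796 and 1.25 in LiCl, and 4.08 and 4.95 in Sia (-1.73 ± 0.42, adjusted p = 0.032). The HES7 match Xelaev18000897m differed by -1.23 ± 0.29 (adjusted p = 0.031). The otx2 and crescent calls were lost without any 1 of the 4 treated libraries (adjusted p = 0.0567 to 0.278 and 0.125 to 0.181), that of crescent also without control 2 (adjusted p = 0.0541), and that of the HES7 match without LiCl 1, Sia 1 or Sia 2.

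Neural plate genes split by direction. Of 58 tested rows (108 in the table), 15 were higher in Sia (25.9%) and 7 higher in LiCl (12.1%), and the median difference was -0.38. Of the 15, 9 were under 1 RPKM in all controls and LiCl libraries, so they could pass the filter on low values only through Sia or libraries outside the comparison, and with the filter of 5 RPKM in 2 libraries the counts were 7 and 5. The median change from control was 0.35 in LiCl and 0.72 in Sia. Those higher in Sia included anterior genes. Irx5.S, fezf2.S, six3.S and rax.L, given next, are all among the 9 rows under 1 RPKM in controls and LiCl. Irx5.S, an Iroquois homeobox gene, was at 0 to 0.0474 RPKM in controls, 0.0403 and 0.123 in LiCl, and 5.31 and 4.51 in Sia (-3.20 ± 0.13, adjusted p = 4.1e-08). Fezf2.S, a forebrain zinc finger gene, was at 0.0790 to 0.169 RPKM in controls, 0.252 and 0.120 in LiCl, and 2.78 and 2.12 in Sia (-2.23 ± 0.20, adjusted p = 3e-05). The eye and forebrain homeobox genes six3.S and rax.L differed by -1.71 ± 0.34 (adjusted p = 0.013) and -0.80 ± 0.18 (adjusted p = 0.026). Rax.L was low throughout, at 0.273 to 0.623 RPKM in controls, 0.569 and 0.322 in LiCl, and 0.742 and 1.04 in Sia. Those higher in LiCl included both GBX2 matches, both SOX3 matches (0.67 and 0.49) and sox2.1 (0.84 ± 0.21, adjusted p = 0.038), pan-neural factors of the early plate. The count of 15 was 9 without LiCl 1, 7 without LiCl 2, 2 without Sia 1 and 3 without Sia 2. It was 3 within the shared batch alone, where 4 were higher in LiCl, and 8 without the replicate block. The calls of six3.S, rax.L, sox2.1 and the less changed SOX3 and GBX2 matches were each lost without at least 3 of the 4 treated libraries in turn, and that of sox2.1 also without any 1 of the 3 controls.

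Hox and retinoic acid genes also went both ways, with 5 of 33 tested rows higher in LiCl (15.2%) and 5 in Sia (15.2%). The balance depended on the filter: the counts were 4 and 13 with no filter and 3 and 1 with the filter of 5 RPKM, and 3 of the 5 higher in Sia (hoxc8.L and both CYP26C1 matches) were under 1 RPKM in all controls and LiCl libraries. Beside the hoxd1 rows, the HOXA2 match was higher in LiCl (1.56 ± 0.18, adjusted p = 0.00026). Hoxc8.L, a trunk hox gene, was at 0.0249 to 0.128 RPKM in controls, 0.0806 and 0.0134 in LiCl, and 3.09 and 2.24 in Sia (-2.50 ± 0.14, adjusted p = 5.7e-07). The CYP26C1 match LOC100489980-like.L, whose human counterpart breaks down retinoic acid, was higher in Sia (-2.65 ± 0.28, adjusted p = 0.00017). Outside this list, hoxb6.S (-3.34 ± 0.16, adjusted p = 1.4e-07) and hoxb6.L (-2.01 ± 0.12, adjusted p = 8.2e-07) were also higher in Sia. Both were under 1 RPKM in all controls and LiCl libraries, and they were added after their values were seen.

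The largest differences of the comparison were of transcripts that were low in controls and LiCl and far higher in Sia. The RPRML match Xelaev18043374m was at 0, 0 and 0.0244 RPKM in controls, 0 and 0.0263 in LiCl, and 64.7 and 20.1 in Sia (-5.99 ± 0.34, adjusted p = 6.9e-07). Its LiCl libraries held 1 read against 3007 in Sia, a depth-corrected ratio of 2768 with a 95% counting interval from 496 to 109359. Somatostatin (sst.L), a peptide hormone of neuroendocrine cells, was at 0.143, 0.357 and 0.188 RPKM in controls, 0.244 and 0.271 in LiCl, and 40.1 and 14.6 in Sia (-4.78 ± 0.35, adjusted p = 5.3e-06). Chromogranin A (chga.S), a protein of neuroendocrine secretory granules, was at 0.64, 0.55 and 1.03 RPKM in controls, 0.81 and 1.2 in LiCl, and 26.2 and 12.9 in Sia (-3.59 ± 0.35, adjusted p = 7.8e-05). In each of these, no LiCl library approached either Sia library, and Sia 1 was higher than Sia 2.

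Transcription factor genes of later organs were among them. Twist1.L, a factor of neural crest and mesenchyme, was at 0.156, 0.156 and 0.0514 RPKM in controls, 0.422 and 0.315 in LiCl, and 17.9 and 10.7 in Sia (-3.95 ± 0.18, adjusted p = 1.2e-07). Hmx3.L, a homeobox gene of the inner ear and hypothalamus, was at 0.0160, 0.180 and 0.358 RPKM in controls, 0.164 and 0.273 in LiCl, and 15 and 7.38 in Sia (-3.78 ± 0.30, adjusted p = 1.3e-05). Gsx2.L, of the ventral forebrain, rose from at most 0.0223 RPKM in controls to 12.0 and 4.69 in Sia, beside 0.0762 and 0.0635 in LiCl (-3.70 ± 0.26, adjusted p = 4.3e-06). The LIM homeobox LHX9 match (Xelaev18023452m), the corepressor gene skor2.S and nkx2-3.S, a homeobox gene of pharyngeal endoderm and heart, differed by -4.59 ± 0.18, -3.72 ± 0.19 and -3.64 ± 0.26. Others were 2 PHYHD1 matches (-5.95 ± 0.22 and -4.83 ± 0.19), a TSC22D3 match (-4.63 ± 0.39) and a FAM135A match (-3.81 ± 0.26). An SLC26A4 match, at 8.10 RPKM in Sia 1 and 31.9 in Sia 2, differed by -3.78 ± 0.43, and a CD84 match, with 0 reads in LiCl against 1479 in Sia, was at least 454-fold higher in Sia (floor of 3 reads over the LiCl libraries). Xelaev18026053m and Xelaev18026054m, rows with no name in the table, were at 45 and 31.8 RPKM and at 41.1 and 31.6 RPKM in Sia and at most 0.518 in controls and LiCl.

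Of the 822 genes called higher in Sia, 127 (15.5%) were under 1 RPKM in each of the 3 controls and 2 LiCl libraries, a limit set after these values were seen. The same limit applied to controls and Sia left 27 of the 277 genes higher in LiCl (9.75%). Because a row needed 1 RPKM in 2 libraries to be tested, a row of this kind had to be high elsewhere, and the 127 are a description of the calls. Their median level was 0.0930, 0.0828 and 0.0999 RPKM in the controls, 0.156 and 0.120 in LiCl, and 2.92 and 2.06 in Sia, and 92 of them were higher in Sia 1 than in Sia 2. In libraries outside the comparison, 93 of the 127 stayed under 1 RPKM in all 12 other whole-embryo libraries of stage 10.5, and 90 in all 10 dorsal and ventral half-embryo libraries. At stage 9, before gastrulation, both Sia libraries were above both LiCl and both controls of their batches for 83 of the 127 rows, at medians of 0.555 and 0.207 RPKM in Sia against 0.0298 and 0 in LiCl. Testing there also needed 1 RPKM in 2 libraries, which rows near 0 in LiCl and controls could reach only through Sia or other libraries of that stage. Of the 24 tested at that stage, 15 were called higher in Sia, against 0.534% of all genes tested there. No share over all genes was taken for the 83 rows, and these stage 9 counts too are a description. Without Sia 1 or Sia 2, 33 and 34 of the 127 passed the filter and 22 and 24 were called.

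**Figure D3:**
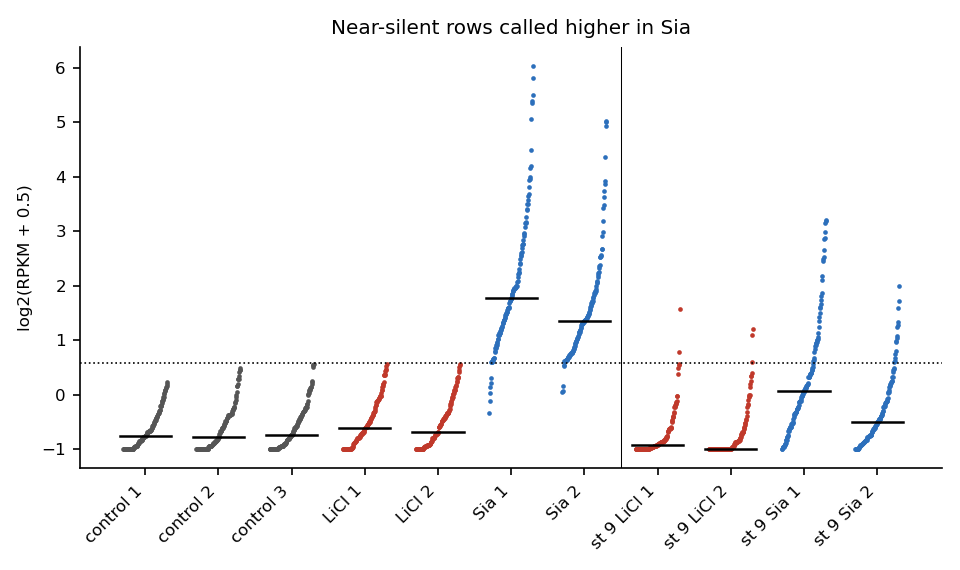
Level on the log2(RPKM + 0.5) scale of the 127 rows called higher in Sia and under 1 RPKM (dotted line) in controls and LiCl, ranked within each library, with black bars at the medians; stage 9 libraries are right of the vertical line. At stage 10.5 the medians were 2.92 and 2.06 RPKM in Sia and at most 0.156 in the other 5 libraries, and the separation by the limit is how the rows were chosen.

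Of 60 tested rows for DNA replication, 12 were called higher in Sia (20%, against 4.36% of all genes), 1 was higher in LiCl (1.67%) and 47 were not called. The median difference was -0.11 against -0.03 over all genes tested. Against control, LiCl lowered 19 of these 60 rows and raised 4, beside 10.4% lowered and 3.79% raised over all genes tested. The median change was -0.12 in LiCl and -0.02 in Sia, beside -0.06 and -0.02 over all genes tested. The flap endonuclease gene fen1.L held 13.3, 16.7 and 18.0 RPKM in controls, 7.99 and 10.6 in LiCl, and 16.9 and 17.1 in Sia (-0.71 ± 0.08, adjusted p = 0.00018). Sliding clamp PCNA (Xelaev18018556m) held 122, 157 and 162 RPKM in controls, 71.6 and 103 in LiCl, and 146 and 159 in Sia (-0.66 ± 0.08, adjusted p = 0.00034). In both, LiCl lay below the other 5 libraries and Sia within the range of the controls. The helicase subunit gene mcm4.L differed by -0.70 ± 0.10 (adjusted p = 0.0011).

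Mitosis and checkpoint genes had 11 of 71 tested rows higher in Sia (15.5%) and 4 higher in LiCl (5.63%), with a median of -0.13. The mitotic kinase gene aurka.S held 13.6, 12.7 and 20.9 RPKM in controls, 9.27 and 12.6 in LiCl, and 14.8 and 22.3 in Sia (-0.84 ± 0.12, adjusted p = 0.0012), and plk1.L differed by -0.69 ± 0.13 (adjusted p = 0.0093; 0.147 without LiCl 2 and 0.119 without Sia 2). Both pair differences of aurka.S were below 0 (-0.74 and -0.80), and LiCl 2 lay just below the lowest control. The 4 higher in LiCl were ccnb2.L, ccne1.S, cdc25b.L and cdc25b.S, which drive cell cycle transitions, and none of these kept its call without Sia 1 or without Sia 2. Size factors from the median of ratios left 9 and 6 of the calls higher in Sia in these lists. The counts of 12 and 11 were 5 and 5 without LiCl 1, 5 and 5 without LiCl 2, 4 and 6 without Sia 1 and 4 and 1 without Sia 2; without control 3 they were 9 and 6, with the 7 libraries alone 5 and 6, within the shared batch 4 and 0, and without the replicate block 1 and 0. Of 49 reference gene rows 5 were higher in Sia (10.2%), among them rpl8.L (-0.76 ± 0.16, adjusted p = 0.015) and 2 GAPDH matches (-0.58 and -0.62), each of which also fell against control in LiCl. The calls of rpl8.L (adjusted p = 0.0789 to 0.0902) and the GAPDH match Xelaev18036725m (0.0705 to 0.171) were lost without any 1 treated library, and that of the GAPDH match Xelaev18034420m without LiCl 1, LiCl 2 or Sia 2 (0.092 to 0.253).

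Over all genes tested, 1.47% were called higher in LiCl and 4.36% higher in Sia. Wnt receptors and regulators had 4 of 66 rows higher in LiCl (6.06%) and 7 higher in Sia (10.6%). Besides fzd10, the Tcf gene tcf7l1.S, a repressor of Wnt targets in the absence of signal, differed by -0.54 ± 0.07 (adjusted p = 0.00066). BMP and ventral genes had 2 of 52 higher in LiCl (3.85%) and 5 higher in Sia (9.62%), but 12 and 5 when the 7 libraries of the comparison were fitted alone and 5 and 6 with 10 libraries. Msx2.S, a BMP-induced homeobox gene, held 1.35, 2.08 and 1.43 RPKM in controls, 3.4 and 4.17 in LiCl, and 1.12 and 0.715 in Sia (1.75 ± 0.21, adjusted p = 0.00046). The T-box gene tbx2.S went the other way, at 1.01 to 1.57 RPKM in controls, 0.893 and 1.24 in LiCl, and 8.73 and 5.80 in Sia (-1.98 ± 0.24, adjusted p = 0.00037), as did the GATA3 match Xelaev18017847m (-1.46 ± 0.21, adjusted p = 0.0014). Epidermis and non-neural ectoderm genes had 3 of 56 higher in LiCl (5.36%), klf5.S among them (0.50 ± 0.11, adjusted p = 0.02), and 5 higher in Sia (8.93%), including the keratin gene krt8.L (-0.36 ± 0.06, adjusted p = 0.0039). With the 7 libraries alone these counts were 5 and 2. The klf5.S call was lost without LiCl 1, Sia 1 or Sia 2 and that of krt8.L without Sia 2 (adjusted p = 0.08).

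FGF pathway genes had 2 of 41 rows higher in each treatment (4.88%, against 1.47% and 4.36% of all genes): fgf20.L and spry2.L in LiCl and fgf2.L and spred1.L in Sia. Lithium also blocks inositol monophosphatase, and of 54 tested rows for inositol and phosphoinositide metabolism (176 in the table) 1 was called (1.85%), higher in Sia, a PRKCD match at 0 RPKM in all controls and LiCl libraries. Osmotic and stress genes had 1 of 36 in each direction (2.78%), with the salt-responsive kinase gene sgk1.L at 36.1, 49.3 and 50.4 RPKM in controls, 79.7 and 82.2 in LiCl, and 62.1 and 65.7 in Sia (0.55 ± 0.15, adjusted p = 0.049). That call was lost without any 1 of the 7 libraries but LiCl 2. Innate immune genes had 2 of 22 higher in LiCl (9.09%, irf8.L among them), and germ plasm RNAs 1 of 26 higher in LiCl (3.85%) and 2 higher in Sia (7.69%, ddx4.1 and a PLIN2 match). Counts this small do not set these lists apart from all genes. The 4 FGF calls were each lost without at least 2 of the treated libraries in turn, as were those of irf8.L, ddx4.1 and the PLIN2 match.

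**Figure D4:**
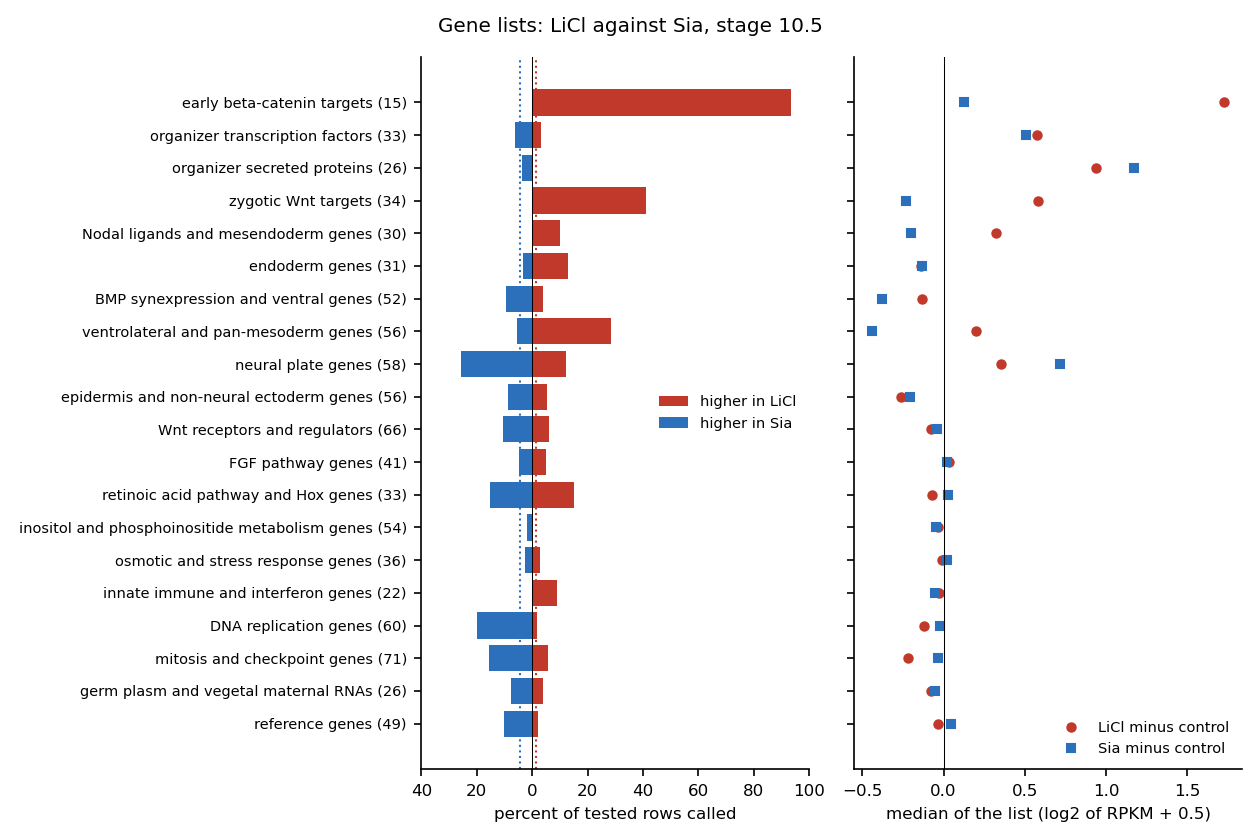
Left, percent of tested rows in each of the 20 gene lists called higher in LiCl (to the right) or in Sia (to the left), with the number of rows tested in brackets and dotted lines at the shares over all genes (1.47% and 4.36%); right, each list's median change from control in LiCl and in Sia. Early β-catenin targets stand out at 14 of 15 rows higher in LiCl, though these rows are copies of few genes. The 2 organizer lists have medians raised by both treatments.

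Libraries outside the comparison were read for the called genes as a description. Between dorsal and ventral half-embryos, 13 of the 257 tested genes called higher in LiCl were dorsal (5.06%) and 2 ventral, against 0.542% and 0.13% of all genes tested there; for the genes called higher in Sia it was 5 and 2 of 712. Among the early β-catenin list, the median dorsal excess over 12 rows was 1.96, while that of the 34 zygotic Wnt rows was -0.02. In embryos injected with Wnt8 mRNA, set against controls of other batches, 11 of the 277 genes higher in LiCl were raised (3.97%) and 6 lowered, against 0.191% and 0.266% of all genes. Of the 822 higher in Sia, 3 were raised and 1 lowered. The Wnt8 change came from the same fit as the LiCl minus Sia difference, so both share the estimate of each gene's spread. A gene with a small spread is more readily called in both, in either direction. Medians over the early β-catenin and zygotic Wnt lists were 0.72 and 0.06 with Wnt8.

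At stage 9, LiCl and Sia were compared within 2 batches that each held both treatments. Of 18528 genes tested, 122 were called (0.658%), 23 higher in LiCl and 99 higher in Sia. Of the genes higher in LiCl at stage 10.5, 14 of 238 tested at stage 9 were called higher in LiCl and 1 higher in Sia, against 0.124% and 0.534% of all genes tested there. Of those higher in Sia at stage 10.5, 38 of 680 were called higher in Sia. The stage 9 count was 47 without LiCl 2, 273 without Sia 1 and 39 without Sia 2.

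The difference between the stages was tested for 70 of the 93 genes named by rule, and it passed for 52 (difference of the 2 limma estimates, Satterthwaite degrees of freedom, two-sided, adjusted by Benjamini-Hochberg over the 70). Of the 93, 87 were named because they were called at stage 10.5, a choice that favours larger differences at that stage. The LiCl minus Sia difference was larger in size at stage 10.5 for 47 of the 52. A siamois row already differed by as much at stage 9. Xelaev18019204m held 5.73 and 8.82 RPKM in the controls, 46.6 and 49.9 in LiCl, and 4.01 and 4.76 in Sia at stage 9, a difference of 3.32 ± 0.24 against 3.14 at stage 10.5 (adjusted p = 0.65 for the change). The posterior genes hoxd1.S and cdx1.S differed more at the later stage. For hoxd1.S the difference was 1.94 ± 0.36 at stage 9, where LiCl held 5.22 and 4.18 RPKM and Sia 1.05 and 0.671, and it grew by 2.36 ± 0.48 (adjusted p = 0.00045). Cdx1.S was under 0.3 RPKM in these stage 9 libraries, and its difference grew by 1.97 ± 0.31 (adjusted p = 5.2e-05).

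Some organizer genes also moved toward LiCl between the stages. Chordin (Xelaev18027420m) held 18.8 and 6.43 RPKM in the stage 9 controls, 19.7 and 6.36 in LiCl, and 78.1 and 67.9 in Sia. LiCl was close to the control of its batch while Sia was above it in both batches, and the difference was -2.64 ± 0.36 at stage 9 (adjusted p = 0.0044) and -0.79 at stage 10.5, a change of 1.84 ± 0.63 (adjusted p = 0.014). In gsc.L it was -2.06 ± 0.48 at stage 9, not past the test across all genes (adjusted p = 0.11), and 0.01 at stage 10.5 (change 2.08 ± 0.64, adjusted p = 0.0073). Other organizer rows did not pass the test of a change between stages. These were foxa4.L (0.77, adjusted p = 0.096), the OTX2 match (0.07, adjusted p = 0.88) and the HES7 match (-0.40, adjusted p = 0.39). Of the near-silent genes, twist1.L was higher in Sia at both stages. It held 5.77 and 1.55 RPKM in Sia at stage 9 against 0.391 and 0.107 in LiCl, a difference of -2.29 ± 0.33 (adjusted p = 0.0075), which changed by -1.67 ± 0.38 (adjusted p = 0.0013).

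**Figure D5:**
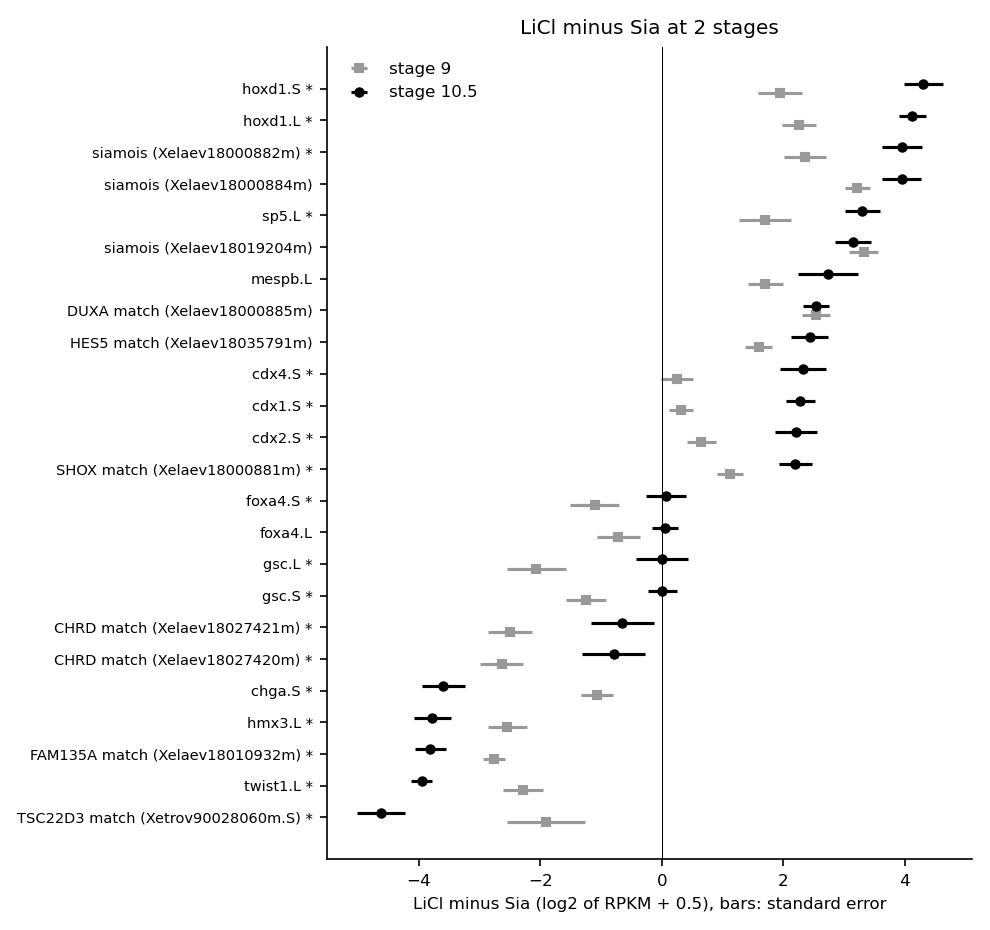
LiCl minus Sia difference on the log2(RPKM + 0.5) scale at stage 9 (grey squares) and stage 10.5 (black circles) for genes with the largest differences and for the most abundant organizer genes, bars giving the standard error and asterisks a change between stages at an adjusted p below 0.05. Siamois row Xelaev18019204m is at 3.32 and 3.14. Of the posterior genes, hoxd1.S is at 1.94 at stage 9, while cdx1.S, at most 0.295 RPKM at that stage, lies near 0. Goosecoid and chordin rows lie below 0 at stage 9 and nearer to 0 at stage 10.5.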

How the data were processed

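The authors deposited RPKM, per the file headers; the submitters' processing notes name TopHat2 2.09 and DESeq without a role. Build, counting and strand are not stated in the sources used here. The column headed LiCl 3 was taken as LiCl 2, whose label names control 3. The 2 columns of averages were not used. Whole reads were recovered from the RPKM steps (100% whole within 0.005; 28.7 M to 45 M, megareads, per library of the comparison).

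Genes with 1 RPKM in at least 2 libraries were fitted with limma 3.58.1 (R 4.3.3, trend) on log2(RPKM + 0.5), which understates changes of low genes, with group and labelled batch as terms. Libraries sharing a batch deviated together (21 pairs, correlation of deviations from group means 0.38 to 0.86). Half-embryos had their own fit with dorsal or ventral as the only term, so dorsal and ventral libraries of the same number were not paired. Chi-square per degree of freedom between replicates was 84.8 (LiCl) and 48.8 (Sia), so none was a copy. The fit was tested on simulated data.

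Members and the 20 gene lists were chosen with earlier results of these data known. Genes named were called, had the same sign in both pair differences and a mean of 5 RPKM in LiCl or Sia: the 15 largest in each direction, up to 4 members per list with the smallest p (whatever the sign or level), and the 6 most abundant organizer rows. A further 22 list members (such as twin, axin2.L, t.L and six3.S) were chosen after their values were seen. Some genes that the rule names are not reported here. No sequences are shown.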

Additional observations from a re-analysis of the deposited data

Results flagged for a closer look

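The LiCl minus Sia difference was not the same at stage 10.5 and stage 9 for 52 of the 70 genes tested at both, which is what brought these results here; each value is the stage 10.5 difference minus the stage 9 difference, on the log2(RPKM + 0.5) scale, and was past an adjusted p of 0.05. The 2 stages come from separately normalized tables, and each difference was taken within its own table. No cause of these changes was tested. Genes that were low at stage 9 can show little difference there, given the pseudocount of 0.5. In the stage 9 LiCl and Sia libraries and their controls, the highest value was 0.295 RPKM in cdx1.S and 0.546 in cdx4.S. It was 0.319 in apln.L and 0.350 in spred1.L. Most of these genes were named for their difference at stage 10.5, so the choice itself favours a larger difference at that stage.

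Posterior and Wnt-responsive genes moved toward LiCl with age. The change was 2.36 for hoxd1.S, 1.86 for hoxd1.L and 1.60 for sp5.L. It was 2.07 for cdx4.S, 1.97 for cdx1.S, 1.55 for cdx2.S, 1.46 for fzd10.L and 1.03 for fzd10.S. Among early dorsal genes and their neighbours in the list of largest differences it was 1.59 for the siamois row Xelaev18000882m and 1.08 for the SHOX match Xelaev18000881m.

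Some organizer and axial genes also moved toward LiCl. Of these, the chordin rows passed the test at stage 9, higher in Sia, and the others did not. The change was 2.08 in gsc.L, 1.25 in gsc.S, 1.84 and 1.85 in the chordin rows Xelaev18027420m and Xelaev18027421m, 1.17 in foxa4.S and 1.18 in not.L. Some genes of the mesoderm, Nodal, endoderm, BMP and FGF lists moved the same way. Their changes were 1.67 (nodal1.S), 1.47 (foxc1.L), 1.28 (hes1.S), 1.2 (spry2.L), 1.05 (apln.L), 0.88 (fgf20.L), 0.76 (myf5.S), 0.73 (cxcr4.L) and 0.69 (wnt11b.L). Smaller changes in the same direction were 0.93 in sgk1.L, 0.58 in polr2a.1 and 0.48 in klf5.S. The rows with no name Xelaev18038969m and Xelaev18029679m changed by 1.76 and 0.91.

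Transcripts that were low outside Sia at stage 10.5 moved toward Sia with age: by -2.73 in the TSC22D3 match Xetrov90028060m.S, -2.53 in chga.S, -1.67 in twist1.L, -1.24 in hmx3.L and -1.04 in the FAM135A match Xelaev18010932m. Rows Xelaev18026053m and Xelaev18026054m changed by -2.33 and -2.21. Replication and mitosis genes changed by -0.65 (fen1.L), -0.65 (PCNA match Xelaev18018556m), -0.53 (mcm4.L), -0.97 (aurka.S), -0.94 (aurka.L), -0.78 (plk1.L) and -0.45 (mad2l1.S). The others were -1.02 in spred1.L, -0.95 in the MT4 match LOC100488960.L, -0.50 in fgf2.L, -0.44 in tcf7l1.S, -0.44 in ddx4.1 and -0.32 in the PLIN2 match Xelaev18006725m.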

How the results depend on the processing

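Counts of genes called at stage 10.5 stayed within 1.5 times under either other pseudocount (0.1 or 1), no filter, a filter of 5 RPKM, median-of-ratios size factors, voom on recovered reads and without any 1 of the controls. They fell to 613 (396 higher in Sia) with only the 7 libraries, to 605 (184 higher in LiCl, 421 higher in Sia) with 10 libraries, and to 224 (68 and 156) within the shared batch alone. Without the replicate block, the batch term that pairs libraries, the count was 150 (25 higher in LiCl, 125 higher in Sia) at stage 10.5 and 11 at stage 9. Leaving out 1 library gave 339 to 1110 calls at stage 10.5 (92 to 284 higher in LiCl, 247 to 836 higher in Sia) and 39 to 273 at stage 9. Some of these fits held fewer libraries, while the fit without the replicate block did not. The cause of the changes in count was not tested.

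Of the 87 called genes named by rule, 50 lost their call without the replicate block, 14 with 7 libraries and 1 with size factors, all in the same direction. Within the shared batch alone, some of the named rows no longer passed the filter on low values, so losses there are not counted. Without Sia 1 or Sia 2, some named rows also dropped out at the filter. Among the other genes described, the SOX3 match Xelaev18038842m reversed to -0.0226 (adjusted p = 0.998) without the replicate block. The 127 near-silent rows, a count added after the data were seen, became 517 with no filter and 18 with the filter of 5 RPKM. With 2 libraries a group and 8 residual degrees of freedom, small differences are often missed: in simulated libraries with the same design, 6 of 50 genes changed 1.5-fold were called, 28 of 50 at 2-fold and 49 of 50 at 4-fold. The simulation gave every gene the same dispersion and no batch effect, and the changed genes were well covered by reads. These rates need not hold in the data, least of all for low rows.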
